A study of Rattus norvegicus and Bos taurus with 6 samples.

Results

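The blood vascular endothelium of rat mesenteric perivascular adipose tissue (mesPVAT) was represented by 135 of the 5887 nuclei in the 10x library (2.29%, 95% exact binomial interval, 1.93 to 2.71). These nuclei carried 28571 of the library's 1237543 transcripts, counted as unique molecular identifiers (UMIs). A nucleus was a member when it held at least 2 UMIs summed over 8 endothelial genes (Ptprb, Pecam1, Cdh13, Cyyr1, Shank3, Mecom, Flt1 and Adgrl4) and more of these than of 12 genes of other cell types. Those were Plin1, Adipoq and Lipe of adipocytes, Msln, Wt1 and Pkhd1l1 of mesothelium, Pdgfra, Dcn and Fbn1 of stromal cells, and Ptprc, Mrc1 and Cd163 of macrophages and other leukocytes. A UMI of Prox1, Ackr4 or Foxp2, used as lymphatic genes, excluded a nucleus. The counts of this library chose the members, so every value set against other nuclei of the same library is a description and carries no test.

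The study isolated nuclei from white and brown fat of rats and from white fat of Holstein cows, 19424 nuclei in 6 libraries, with 1 library per condition. The 10x library came from snap-frozen mesPVAT of male Dahl SS rats (SS/HsdMcwiCrl), a strain known for salt-sensitive hypertension, which were kept at 22 °C on a normal diet and are labelled as free of disease, with no treatment or genetic change named. The 4 rat libraries set beside it were made from the same strain and sex with the Parse kit and are labelled mesPVAT, retroperitoneal (RP) fat, thoracic aortic PVAT (taPVAT) and subscapular BAT. The 10x library is labelled batch 1 and the Parse libraries batch 2, so kit and batch cannot be told apart. By the study's methods, the 10x nuclei were also isolated with another protocol and sorted by a DNA stain, and the reads were aligned to another rat genome. The age and the number of rats behind each library are not given in the sources used here. Among the Parse libraries, that labelled mesPVAT reached 41374 UMIs in a nucleus, with a median of 304 genes, and that labelled RP fat 5611 UMIs, with a median of 197 genes. The study describes the deeper nuclei for RP fat and the shallower ones for mesPVAT, the reverse of these labels, so which of the 2 depots each library holds is uncertain and both are named by their labels only. No barcode was shared between any of the rat libraries, but 10x and Parse barcodes differ in form, and this count is no check on the labels.

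Blood endothelial cells line every vessel and form the barrier between blood and tissue. Their identity rests on ETS-family transcription factors such as ERG and FLI1, on receptors for VEGF and angiopoietins, and on VE-cadherin junctions. In fat, capillary endothelium also takes up fatty acids from circulating lipoproteins and hands them to adipocytes, while arterial endothelium depends on Notch signalling and venous endothelium on the factor Nr2f2.

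The endothelial nuclei were shallow. They ranged from 85 to 645 UMIs around a median of 181 UMIs (166 to 203, a 95% interval from order statistics), with a median of 158 genes (145 to 175). The median over all nuclei of the library was 161 UMIs (157 to 163) and 137 genes, and that of adipocyte nuclei, chosen with the same rule turned to their 3 genes, was 243.5 UMIs. After thinning each nucleus to 150 UMIs, which left out 44 of the endothelial nuclei, the median was 135 genes (133 to 136) in endothelial nuclei and 135 genes (135 to 136) in adipocyte nuclei. Mitochondrial transcripts made up 0.172% of the endothelial UMIs and 0.170% of all UMIs. In the sum over the 135 nuclei, 1 UMI was worth 35.0 CPM (UMIs scaled to a common total), and a gene with no UMI had a limit of 3 counts, or 105 CPM. All intervals cover counting error only, since no condition was replicated.

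The rule genes were spread thinly over the nuclei. The 8 genes summed to 2 UMIs in 51 nuclei, 3 UMIs in 40, 4 UMIs in 14 and at least 5 UMIs in 30, with a maximum of 15 UMIs. Just outside the rule were 97 nuclei with 1 such UMI and none of the 12 other genes, with a median of 140 UMIs. A further 58 nuclei had at least 2 endothelial UMIs but no more of these than of the other genes, with a median of 375.5 UMIs. Of the members, 69 nuclei had no UMI of the 12 genes, 47 had 1, 15 had 2 and 4 had 3. Most of these were adipocyte transcripts, with 63 UMIs in 46 nuclei, of which 47 UMIs came from Lipe, the hormone-sensitive lipase. Lipe was found in 25.2% of endothelial, 91.5% of adipocyte and 11.4% of mesothelial nuclei. No endothelial nucleus had a UMI of Wt1, Pdgfra, Mrc1 or Cd163.

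**Figure D1:**
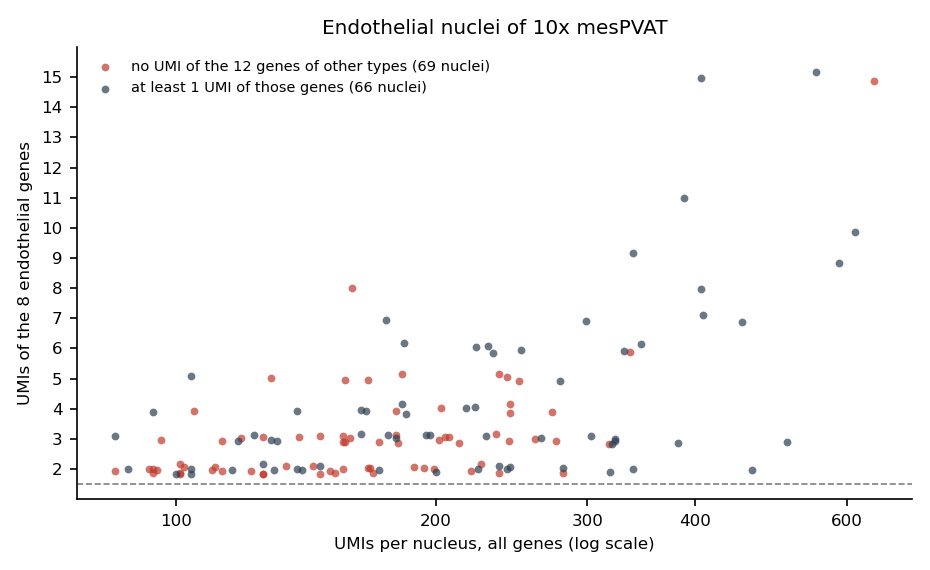
Each point is 1 of the 135 endothelial nuclei, with its total UMIs on a log axis and the UMIs of the 8 endothelial genes on the vertical axis, spread slightly to separate equal values. The 51 nuclei with 2 such UMIs lie just above the dashed line of the rule, and the nuclei with at least 8 of them lie mostly to the right, at more than 300 total UMIs.

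Among the 8 genes, Cdh13, which encodes T-cadherin, a receptor for adiponectin, gave 172 of the 499 UMIs (34.5%) and was found in 96 nuclei. Mecom, a zinc finger transcription factor, gave 91 UMIs in 55 nuclei, and Pecam1, the adhesion molecule of endothelial contacts, 74 UMIs in 44 nuclei. Ptprb, the phosphatase that acts on VE-cadherin and Tie2, gave 47 UMIs, Shank3, a scaffold protein, 42 UMIs, and Flt1, a VEGF receptor, 38 UMIs. Cyyr1 gave 20 UMIs and Adgrl4, an adhesion G protein-coupled receptor, 15 UMIs. Cdh13 and Mecom were found together in 34 nuclei and Pecam1 and Mecom in 19, whereas Ptprb and Adgrl4 met in 2. A total of 22 nuclei entered through 1 gene alone, and in 12 of them this gene was Cdh13.

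Each rule gene was also measured in nuclei chosen by the other 7 genes, so that it did not choose its own nuclei. Mecom then had 62 UMIs in 34 of 114 nuclei (29.8%, exact binomial interval, 21.6 to 39.1) and a level of 2474 CPM, 39.5 times (27.8 to 55.9) the level of all other nuclei. Its share in adipocyte nuclei, which should lack the gene, was 0.719% at a median of 244 UMIs, against 183.5 UMIs in the nuclei chosen. The ratio was 33.1 (15.8 to 68.0) for Cyyr1, 26.0 (15.4 to 43.1) for Flt1 and 17.2 (13.4 to 21.9) for Cdh13. It was 14.7 (9.08 to 23.0) for Ptprb, 14.5 (10.1 to 20.4) for Pecam1 and 9.16 (4.31 to 17.8) for Adgrl4. Shank3 had the lowest ratio, 7.93 (4.92 to 12.3), and was found in 18.2% of the nuclei chosen without it and in 1.67% of adipocyte nuclei. None of the 8 intervals reached 2.

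A wider list of pan-endothelial genes that the rule did not use followed the same nuclei. Across all genes, 680 of the 8081 genes with at least 20 UMIs in the library (8.41%) were at least 2-fold higher in endothelial than in all other nuclei with more than 3 UMIs, and 294 (3.64%) were at least 2-fold lower. A lower call sets counts under 3 to 3. Genes with few UMIs in the other nuclei could therefore not be called lower, here or in the lists below. With at least 50 UMIs required, 294 of 5013 genes (5.86%) were lower, so 3.64% is a low background for lists of abundant genes. Of the 28 pan-endothelial genes in the file, 19 had at least 20 UMIs, and 16 of these were at least 2-fold higher. None was lower, a call that genes with few UMIs in the other nuclei could not receive. The median ratio of the 19 genes was 7.79, beside 0.808 over all genes tested. Notch4 met the minimum only through its endothelial UMIs and so had to be higher, and with 20 UMIs required in the other nuclei alone 15 of 18 were higher, with a median ratio of 6.90. The list summed to 300 UMIs in 96 of the nuclei, or 10500.2 CPM (95% exact Poisson interval, 9345 to 11758), 6.13 times (5.41 to 6.92) the level of all other nuclei. It stood at 2625 CPM (2338 to 2937) in mesothelial, 1126 CPM (1018 to 1243) in adipocyte, 1074 CPM (815 to 1388) in stromal and 926 CPM (605 to 1357) in macrophage nuclei. The endothelial interval overlapped none of these.

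St6galnac3, a sialyltransferase, had 61 UMIs in 42 endothelial nuclei, a level of 2135 CPM against 133 CPM in other nuclei, and was found in 31.1% of endothelial and 1.68% of adipocyte nuclei. Egfl7, a protein secreted by endothelium into its matrix, had 31 UMIs (1085 against 85.2 CPM), a ratio of 12.7 that was 3.85 in the members with no UMI of the 12 other genes and 19.2 against the 4 other rule classes alone, and Adgrf5, an adhesion receptor, 23 UMIs (805 against 62.0 CPM). Cdh5, which encodes VE-cadherin, had 18 UMIs and a ratio of 12.3 (6.84 to 21.0). Notch4 had 14 UMIs in endothelial nuclei and 10 in all other nuclei, a ratio of 59.2 (24.5 to 149), and Robo4, a guidance receptor that stabilizes vessels, had 14 and 20 UMIs, a ratio of 29.6 (13.8 to 61.7). In the members with no UMI of the 12 other genes, the ratio was 33.1 for Notch4 and 30.6 for Robo4, and against the 4 other rule classes alone 269 for Notch4 and 67.2 for Robo4. Rasip1, needed for vessel lumens, and Ldb2, a partner of LIM-domain factors, had ratios of 6.00 and 5.66, or 11.3 and 8.57 against the 4 other rule classes alone. Mesothelial nuclei had 34 UMIs of St6galnac3, 17 of Cdh5, 1 of Robo4 and none of Notch4. The signal was spread over many genes of few UMIs each, and no pan-endothelial gene was found in more than 31.1% of the nuclei. Clec14a, Cd34, Ecscr and Sox18 had no endothelial UMI.

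The promoters of the list, taken as the 250 bases before each start (RefSeq, GRCr8), were searched on both strands for CAGGAAG. This is a form of the ETS site bound by ERG and FLI1. They were also searched for AGATAA, a form of the site of GATA factors. Of 23 promoters matched to 20 of the 30 genes, CAGGAAG was in 5 (21.7%), those of Egfl7, Emcn, Erg, Robo4 and Ushbp1, beside 10.2% of all 33469 promoters. AGATAA was in 1 (4.35%), that of Erg, beside 10.3% of all. Of the 5 promoters matched to the 8 rule genes, that of Shank3 held both motifs. A match is a string of letters and not a measured site. The promoters of the 3 genes with the most UMIs among those with a match are shown as examples of where the motifs lay, with the matches of either motif in capitals.
Egfl7, chr3:29805381-29805630, plus strand: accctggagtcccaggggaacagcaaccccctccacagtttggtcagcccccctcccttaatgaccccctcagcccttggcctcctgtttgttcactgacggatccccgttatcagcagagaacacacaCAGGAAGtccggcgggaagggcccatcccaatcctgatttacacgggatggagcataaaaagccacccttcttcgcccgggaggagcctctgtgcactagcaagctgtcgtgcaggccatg
Robo4, chr8:45308489-45308738, plus strand: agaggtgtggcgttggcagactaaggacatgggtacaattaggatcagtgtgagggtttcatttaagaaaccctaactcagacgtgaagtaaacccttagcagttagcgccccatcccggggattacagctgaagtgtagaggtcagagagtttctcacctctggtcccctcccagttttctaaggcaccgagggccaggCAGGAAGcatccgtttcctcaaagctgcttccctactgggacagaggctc
Erg, chr11:48251567-48251816, minus strand: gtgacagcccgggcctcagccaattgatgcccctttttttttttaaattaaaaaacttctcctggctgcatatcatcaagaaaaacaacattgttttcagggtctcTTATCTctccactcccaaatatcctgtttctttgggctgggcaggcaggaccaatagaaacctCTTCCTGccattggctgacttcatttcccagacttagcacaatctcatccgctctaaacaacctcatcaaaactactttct
The ETS match lay 121 bases before the start in Egfl7, 50 bases before it in Robo4 and, on the opposite strand, 81 bases before it in Erg, where the GATA match began 144 bases before the start.

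**Figure D2:**
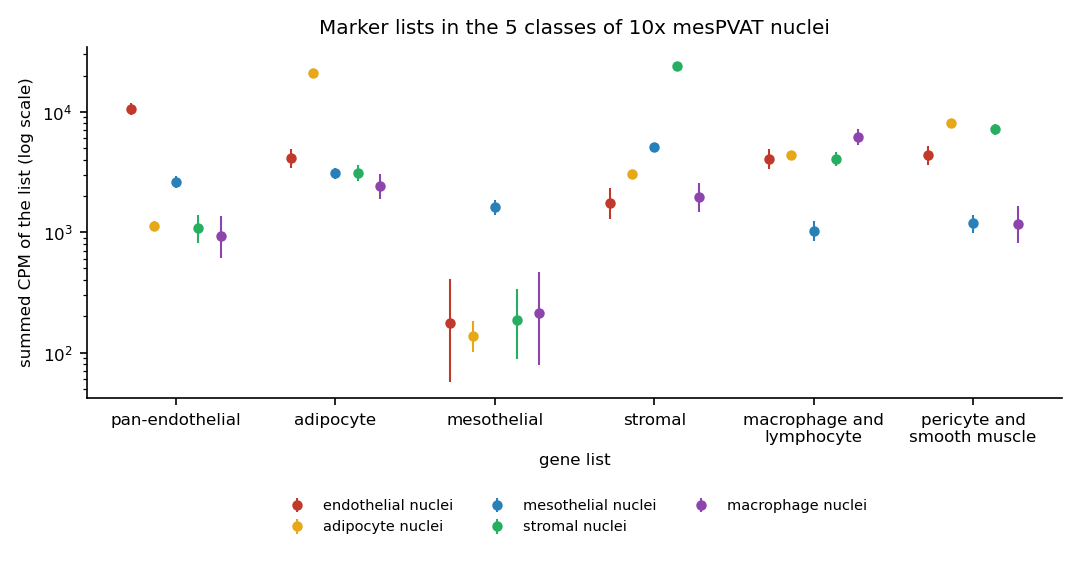
The summed level of 6 marker lists, in CPM on a log axis, is shown in the 5 classes of nuclei, with 95% exact Poisson intervals. Endothelial nuclei lie above all other classes for the pan-endothelial list, at 10500.2 CPM, and at or below 4375 CPM for every other list shown.

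Endothelial nuclei were also set against single classes, over genes with at least 20 UMIs in the 2 classes together. A gene with few UMIs in the other class met this minimum only through its endothelial UMIs and had to be high, so the genes named are examples and not a finding. Against adipocyte nuclei, 14.4% of 3944 genes tested were higher and 9.91% lower, and the highest ratios among genes with at least 20 endothelial UMIs were 41.8 (20.2 to 94.7) for Dach1, 34.0 (20.6 to 58.2) for St6galnac3 and 33.8 (14.5 to 87.7) for Etl4. Against mesothelial nuclei, 13.6% of 1708 genes were higher and 20.4% lower. Rnf220 had a ratio of 42.6 (10.4 to 374) there and Epas1 of 22.3 (7.57 to 89.0). Against stromal nuclei, 16.0% of 811 genes were higher and 30.6% lower, and Egfl7 had 31 UMIs in endothelial nuclei and 1 in stromal nuclei. Against macrophage nuclei, 23.4% of 475 genes were higher and 26.1% lower, and Apbb2, an adaptor protein, had 70 UMIs in endothelial and 1 in macrophage nuclei.

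The 25 genes with the highest ratios outside the rule, among those with at least 20 endothelial UMIs and in at least 5% of the nuclei, included St6galnac3, Adgrf5, Egfl7, Rasip1, Ldb2 and the ETS factor Fli1. LOC108352070, which has no name, had a ratio of 21.7 (12.2 to 37.5). Epas1, the hypoxia-inducible factor HIF-2α, had 22 UMIs and a ratio of 19.8 (11.4 to 33.5), which was 7.77 in the members with no UMI of the 12 other genes. Myo10, a myosin of filopodia, had 27 UMIs and a ratio of 19.0, and none of its UMIs fell in mesothelial nuclei. The ratio was 18.5 for Rnf220, a ubiquitin ligase, and 17.8 for Dach1, a transcription factor known from arterial growth. Further down were Dab2ip at 11.7, Apold1, an early response gene of endothelium, at 9.53, Kalrn at 8.31 (14.3 against the 4 other rule classes alone) and Arhgap31 at 6.67. In the members with no UMI of the 12 other genes, the ratio was 12.7 for LOC108352070, 11.5 for Myo10, 11.2 for Rnf220, 10.5 for Dach1, 7.46 for Dab2ip, 6.21 for Apold1, 5.48 for Fryl, 3.39 for Ldb2 and 2.97 for Fli1, each more than 1.5 times below its value in all members, whereas St6galnac3, at 14.3, and Adgrf5, at 13.9, moved less. Magi1, a scaffold of cell junctions, had 80 UMIs in 56 nuclei, a level of 2800.04 CPM against 477 CPM and a ratio of 5.87 (4.58 to 7.42). Together the 25 genes gave 816 UMIs in 122 of the 135 nuclei. They were chosen by these ratios, and their values are therefore a description.

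Since the Parse libraries took no part in that choice, the same 25 genes were read there in nuclei chosen by the same rule. These were 628 of 3028 nuclei in the Parse library labelled mesPVAT (20.7%), 356 of 2805 in that labelled RP fat (12.7%), 561 of 2708 in taPVAT (20.7%) and 750 of 2699 in BAT (27.8%). In the library labelled mesPVAT, where 5.04% of all genes tested were at least 2-fold higher, 21 of the 24 leading genes tested were, with a median ratio of 2.74, and Rftn1, Magi1 and LOC108352070 were not. Apold1, with 6 UMIs in endothelial and 5 in other nuclei of that library, was too low to be counted. In taPVAT, with 14.3% of all genes higher, 24 of 25 were, with a median ratio of 5.02, and in BAT, with 15.5%, 24 of 25, with a median ratio of 6.13. In the library labelled RP fat, with 3.65% of all genes higher, 4 of 25 were, with a median ratio of 1.58. None of the 25 was at least 2-fold lower in any of them, where 9.69% of all genes in the library labelled mesPVAT, 10.7% in BAT, 8.49% in taPVAT and 5.88% in the library labelled RP fat were.

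Epas1 was the 1 leading gene below 2-fold in taPVAT (1.78, 1.58 to 2.00) and in BAT (1.71, 1.56 to 1.86). Its level in endothelial nuclei was 770 CPM in the 10x library, 514 CPM in taPVAT and 509 CPM in BAT. In the other nuclei it was 38.9 CPM in the 10x library but 289 CPM in taPVAT and 298 CPM in BAT. In the Parse library labelled mesPVAT the level was 442 CPM in endothelial and 154.5 CPM in other nuclei, a ratio of 2.86 (2.32 to 3.52), and in that labelled RP fat 189 and 109 CPM, a ratio of 1.73 (1.12 to 2.63). All Parse libraries had a higher level in the other nuclei than the 10x library, and kit, batch, nuclei isolation, sorting and reference genome cannot be told apart.

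**Figure D3:**
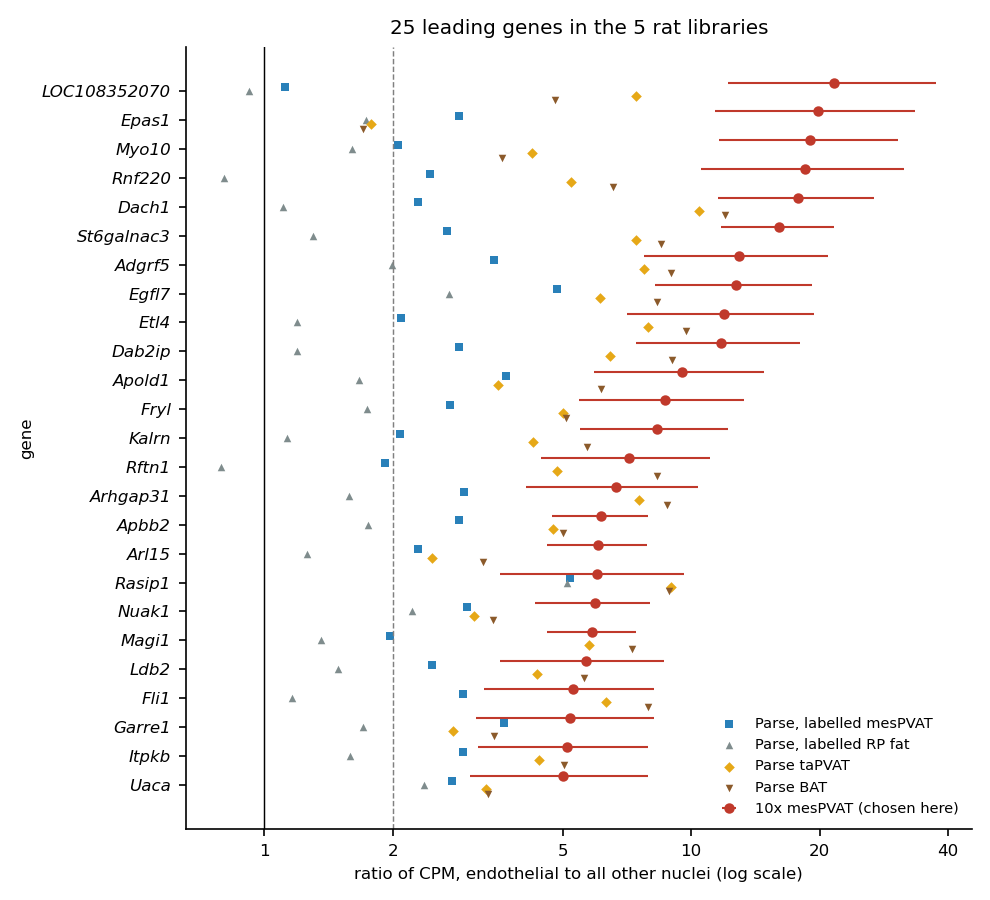
For the 25 leading genes, the ratio of the level in endothelial nuclei to that in all other nuclei of the same library is plotted on a log axis. Circles with 95% intervals give the 10x library that chose the genes, other symbols the 4 Parse libraries, and the dashed line marks 2-fold. Points of taPVAT and BAT lie above 2-fold for every gene but Epas1, and those labelled RP fat lie mostly below it.

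Among the Parse libraries, the ratio of the summed pan-endothelial list followed the same order as the median ratio of the leading genes. This list was read over the 28 genes that all files hold. Its ratio was 6.13 (5.41 to 6.92) in the 10x library, 2.86 (2.70 to 3.02) in the Parse library labelled mesPVAT and 1.78 (1.61 to 1.96) in that labelled RP fat. Among the brown depots, BAT had 8.66 (8.36 to 8.96) and taPVAT had 6.95 (6.69 to 7.21). The intervals of the 10x library and taPVAT overlapped, and no others did. The list's level in the nuclei outside the rule was 1713 CPM in the 10x library, 2057 CPM in the library labelled mesPVAT, 939 CPM in BAT, 1227 CPM in taPVAT and 1909.89 CPM in the library labelled RP fat. Of the rule-gene UMIs, Cdh13 gave 34.5% in the 10x library, 36.9% in the Parse library labelled mesPVAT, 48.8% in that labelled RP fat. It gave 31.2% in BAT and 30.6% in taPVAT. Pecam1 gave 14.8% in the 10x library and between 5.60% and 8.13% in the Parse libraries.

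Transcription factors of endothelium were higher in part. Of 19 tested of a list of 25, 8 were at least 2-fold higher, beside 8.41% of all genes, and none lower, and the median ratio was 3.55, beside 0.808. Meox2 met the minimum only through its endothelial UMIs, and with 20 UMIs required in the other nuclei alone 7 of 17 were higher, with a median ratio of 2.23. Klf2, which responds to laminar flow, had 74 UMIs in 34.1% of endothelial nuclei and a level of 2590.04 CPM, against 459 CPM in adipocyte, 777 CPM in mesothelial, 819 CPM in macrophage and 1333 CPM in stromal nuclei. Meox2, a factor of fat and muscle capillaries that drives fatty acid uptake, had 14 UMIs in 5.93% of the nuclei and 9 UMIs in all others, a ratio of 65.8 (26.5 to 172). Ratios were 10.2 (5.10 to 18.9) for Erg (6.31 in the members with no UMI of the 12 other genes), 9.07 for Ets1, 5.29 (3.27 to 8.18) for Fli1, 4.60 for Mef2c and 4.41 for Tcf4. Foxp1, Etv6, Zeb1 and Foxo1, broadly used factors, had ratios from 0.987 to 1.41 with intervals that included 1. Sox17, of arterial endothelium, and Tcf15, the partner of Meox2, had 5 and 4 UMIs and too few in the library to be counted.

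In a list of receptors of VEGF and angiopoietins outside the rule, 4 of 5 tested were higher, beside 8.41% of all genes. The count includes Plxnd1, a semaphorin receptor, which had 29 UMIs and a ratio of 4.26 (2.80 to 6.25). Nrp1, a co-receptor of VEGF, had 26 UMIs and a ratio of 3.49 (2.25 to 5.22). Tek, the angiopoietin receptor Tie2, had 10 UMIs and a ratio of 4.41. Kdr, the main signalling receptor of VEGF, had 7 UMIs and a ratio of 7.79 (2.94 to 17.7), or 16.8 against the 4 other rule classes alone. In the members with no UMI of the 12 other genes, the ratios of Tek and Kdr were 2.90 and 2.26. They rested there on no more than 3 UMIs each, too few for a higher call. The ligand Vegfa was lower, at 210.003 CPM against 1237 CPM in adipocyte and 796 CPM in stromal nuclei. Angpt2, made by endothelium itself, had 4 UMIs and a ratio of 6.04 (1.54 to 17.3).

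In a list of Notch pathway genes, 5 of 11 tested were higher, beside 8.41% of all genes, and none lower. With the minimum applied to the other nuclei alone, which leaves out Notch4, 4 of 10 were higher. Besides Notch4, the higher genes were Maml2, a coactivator, at 2.29 (1.62 to 3.16) and Notch1 at 3.78 (1.76 to 7.21). The count also includes Heg1, at 3.18 (2.09 to 4.68), and Snrk, at 5.22, which the list holds but which are not core genes of the pathway. The targets Hey1, with 4 endothelial and 3 other UMIs, and the ligand Dll4, with 4 and 11, rested on few counts. Hes1, a target used by many cell types, was at 0.542 (0.279 to 0.952), and Rbpj, the DNA-binding partner of Notch, at 0.545. Junction genes were higher in 9 of 17 tested and lower in 1, beside 8.41% and 3.64% of all genes, with Afdn, which encodes afadin, at 4.20 (2.77 to 6.17), Jam3 at 15.4 (5.92 to 35.9) and the catenin gene Ctnnb1 at 3.31. Pard3, a polarity scaffold, was the lower one, at 0.457. Of 16 BMP and TGF-beta genes in the file, Bmpr2, at 2.55 (1.33 to 4.45), and the co-receptor Eng, at 3.41 (1.07 to 8.40), were the 2 higher among 15 tested, a share near the 8.41% of all genes.

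Segments of the vessel tree were read from arterial, venous and capillary genes. Beside 8.41% of all genes higher and 3.64% lower, the arterial list had 4 of 12 tested genes higher, led by Cxcl12 at 8.46 (2.53 to 22.5) and the elastic fibre gene Fbln5 at 7.69 (3.13 to 16.5). Eln, elastin, had 34 UMIs in 11.1% of endothelial nuclei and a level of 1190.02 CPM, beside 950 CPM in mesothelial and 870.03 CPM in stromal nuclei, values of similar size. The venous list had 3 of 11 higher and 1 lower (Tll1, at 0.427), the higher ones being Ephb4 at 7.27 (3.46 to 13.9), Vwf, the von Willebrand factor, at 4.36 (1.69 to 9.47) and the interleukin receptor Il1r1, at 245 CPM against 62.9 CPM. Nr2f2 was at 1.07 (0.288 to 2.80) with 4 UMIs. The capillary list had 7 of 12 higher and 1 lower (Lpl, at 0.270). With the minimum applied to the other nuclei alone, which leaves out Meox2 and Aqp1, 5 of 10 were higher. The higher genes included Meox2, Kdr, Fabp5 at 12.9 (4.67 to 31.0) and the water channel Aqp1 at 10.6 (2.57 to 32.8) from 4 UMIs. Sgk1 at 6.04 (2.49 to 12.7) and the nucleoside transporter Slc28a2 at 3.40 were also among them. The list summed to 6265 CPM in endothelial and 6687 CPM in adipocyte nuclei, and to 2351 CPM in macrophage, 2258 CPM in stromal and 1416 CPM in mesothelial nuclei. Car4, a carbonic anhydrase, had 4 UMIs and Gpihbp1, the anchor of lipoprotein lipase in capillaries, 1 UMI. Nebl, also arterial, had a ratio of 2.76 (0.987 to 6.24). Of the tip cell list, Angpt2 alone of 8 tested was higher, a share near that of all genes, the insulin receptor gene Insr was lower, and Esm1 had no UMI in the library.

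**Figure D4:**
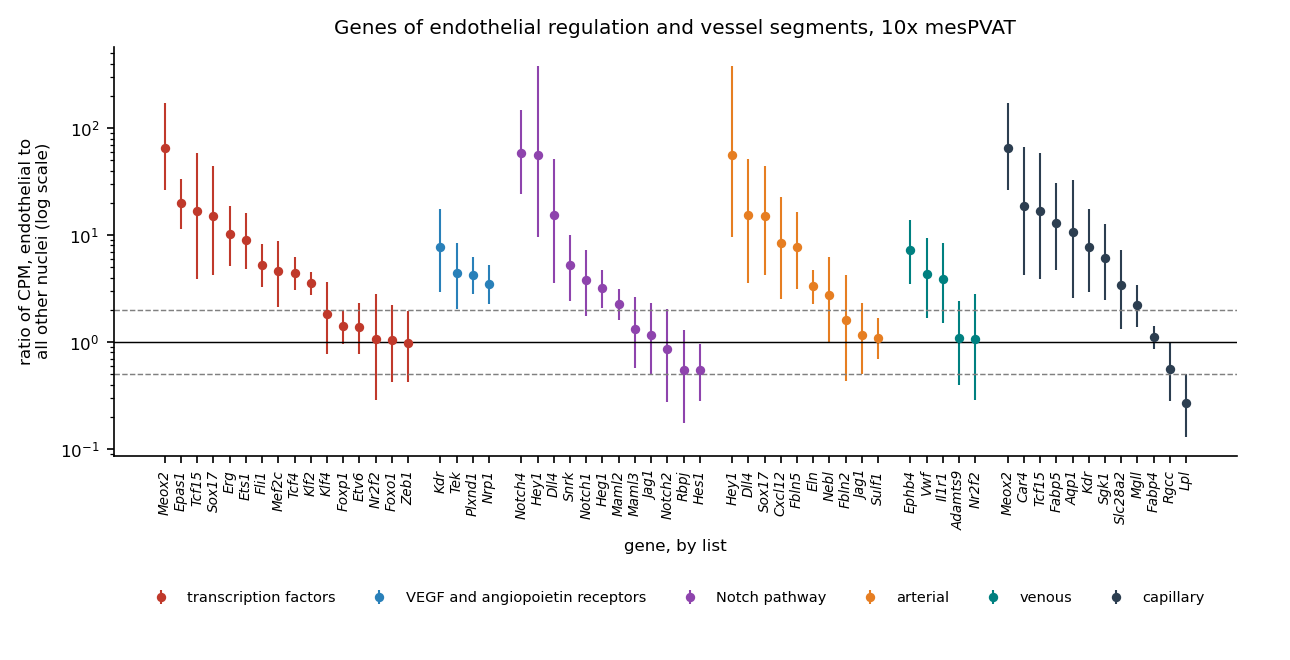
The ratio of the level in endothelial nuclei to that in all other nuclei of the 10x library is plotted on a log axis with 95% intervals for genes of 6 lists with more than 3 endothelial UMIs. Dashed lines mark 2-fold. Meox2, Notch4 and Hey1 have the highest values and wide intervals, and Lpl, at 0.270, the lowest.

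Single nuclei could not be sorted into segments at this depth. With genes shared between lists left out, a UMI of an arterial gene was found in 53 of the 135 nuclei (39.3%), of a venous gene in 33 (24.4%), of a capillary gene in 84 (62.2%) and of a tip cell gene in 34 (25.2%). The shares in adipocyte nuclei, at their higher depth of 243.5 UMIs, were 24.8%, 12.0%, 73.8% and 40.3%. In mesothelial nuclei, at 208.5 UMIs, the whole lists, shared genes included, gave 50.8%, 35.4%, 32.7% and 18.4%. Their arterial and venous shares exceeded those of endothelial nuclei, which were 54 and 34 of the 135 nuclei for the whole lists. By level, the venous list was at 2314 CPM (2045 to 2608) in mesothelial and 1645 CPM (1209 to 2188) in endothelial nuclei. The arterial list was at 3298 CPM and 3920 CPM. The intervals overlapped for both lists. Lymphatic genes did not exclude nuclei from the mesothelial class, and 14.1% of its nuclei had a UMI of Prox1, Ackr4 or Foxp2. The part of lymphatic endothelium in its values was not tested. The capillary list holds Fabp4 and Lpl, which adipocytes express, so its share in adipocyte nuclei is not a background for endothelium. No UMI of any of the 4 lists was found in 21 nuclei, 48 nuclei had those of 1 list, 45 of 2, 18 of 3 and 3 of all 4. Arterial and venous genes met in 17 nuclei.

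Genes of fatty acid handling were mixed, with 4 of 22 tested higher and 4 lower, or 3 of 21 higher without Meox2, beside 8.41% of all genes higher and 3.64% lower. Fabp4, a fatty acid carrier of both capillaries and adipocytes, had 68 UMIs and a level of 2380.04 CPM in endothelial nuclei and 3255 CPM in adipocyte nuclei, above 518 CPM in mesothelial, 574 CPM in stromal and 890 CPM in macrophage nuclei. Scarb1, a lipoprotein receptor, had a ratio of 5.41 (2.60 to 10.2) and Acsl5 of 4.49. Lpl, the lipase that adipocytes deliver to capillaries, was lower, at 350.005 CPM against 1542 CPM in adipocyte nuclei, as were Acsl1 and Dgat2. Of 18 tested genes of nitric oxide, endothelin and vasoactive receptors, S1pr1 at 7.47 (3.23 to 15.3), the cyclase subunit Gucy1a1 at 2.16 and Nos3, the endothelial nitric oxide synthase, at 2.64 (0.699 to 7.11) were higher. Nos3 rested on 4 UMIs, and its interval included 1. The kinase Prkg1, at 0.206, and Cav1, at 0.380, were lower. Cav1 rested on few UMIs, its interval included 1, and its ratio was 2.44 in the Parse library labelled mesPVAT. The median ratio of the list was 0.733, and the shares of all genes were 8.41% higher and 3.64% lower.

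The 10 genes with the lowest ratios had their higher levels in neighbouring cell types. Gpm6a had 3 UMIs, or 105 CPM, in endothelial nuclei and 6484 CPM in mesothelial nuclei. Slit3, a guidance ligand, had 4 UMIs, or 140.002 CPM, beside 4646 CPM in stromal and 3479 CPM in mesothelial nuclei. Acsl1, which activates fatty acids, had 175 CPM beside 2394 CPM in adipocyte nuclei. The others were Slc1a3, Pdzrn3, Medag, Clmp, Pmepa1, Plce1 and Ror1, which had no endothelial UMI and 748 CPM in other nuclei.

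Marker lists of other cell types were read without the rule genes and without Krt19, Muc16 and Higd1b, which were not analysed. Of 17 adipocyte genes tested, 8 were lower, beside 3.64% of all genes and 5.86% of those with at least 50 UMIs, and none higher. The list summed to 4095 CPM (3387 to 4908) in endothelial nuclei, to 20899 CPM in adipocyte, 3082 CPM in mesothelial, 3128 CPM in stromal and 2422 CPM in macrophage nuclei. Ghr, the growth hormone receptor, gave 33 of its 117 endothelial UMIs and Pck1 21. The stromal list, with 8 of 19 lower beside the same shares and none higher, stood at 1750.03 CPM in endothelial and 24083 CPM in stromal nuclei, with Gsn as its most abundant gene at 12 UMIs. The mesothelial list had 5 UMIs, with Krt8, Krt18 and Upk3b at 0. The immune list had 116 UMIs, of which 105 were Ebf1, and 5 without Ebf1, Stab1 and Runx1, with Csf1r and Cd74 at 0. The pericyte list had 125 UMIs, again 105 of them Ebf1, and 3 without Ebf1, Ebf2 and Mcam, with Rgs5, Pdgfrb, Kcnj8, Abcc9 and Acta2 at 0. Ebf1 itself was at 3675 CPM in endothelial, 4181 CPM in adipocyte and 3813 CPM in stromal nuclei. Exocrine pancreas genes gave no UMI in the endothelial nuclei. The part of adipocyte transcripts in the endothelial values was not tested, and doublets were not removed, since the caller Scrublet marked 0 nuclei and had not worked.

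The nuclei set aside for a lymphatic gene numbered 30, of which 23 had a UMI of Foxp2, 18 of Prox1 and 4 of Ackr4. They were deeper than the members, with a median of 491.5 UMIs (342 to 575). The lymphatic list outside the rule was at 3455 CPM in them and 1645 CPM in the members, where Kalrn, also a leading gene, gave 32 of 47 UMIs. The pan-endothelial list stood at 5890 CPM (4812 to 7136), below the members' interval, and the capillary list at 1133 CPM beside 6265 CPM. The venous list was higher in them, at 3681 CPM (2841 to 4692) beside 1645 CPM (1209 to 2188) in the members. The arterial list stood at 3964 CPM beside 3920 CPM, the junction list at 8721 beside 7630 CPM and the endothelial transcription factors at 9797 beside 10605 CPM. The part of depth in these values was not tested. Pkhd1l1, which the rule counts as mesothelial, was found in 16 of the nuclei set aside, and Foxp2 in 11.9% of mesothelial nuclei. Of the mesothelial nuclei, 14.1% had a UMI of Prox1, Ackr4 or Foxp2. These genes therefore did not part the 2 classes cleanly, and the cell type behind such transcripts was not tested.

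Within the members, nuclei with at least 5 rule-gene UMIs also had more of the other endothelial genes than those with 2. The pan-endothelial list was at 8190 CPM (6372 to 10365) in the 51 nuclei with 2 rule-gene UMIs, 9495 CPM in the 40 with 3, 8785 CPM (5569 to 13182) in the 14 with 4 and 13959 CPM (11663 to 16575) in the 30 with at least 5. The last interval lay above that of the nuclei with 2, while the intervals at 3 and 4 rule-gene UMIs overlapped both. Depth moved with this, with a median of 144 UMIs at 2 rule-gene UMIs and 265 UMIs at 5 or more. By depth alone, the list was at 6872 CPM (4813 to 9513) in the 45 shallowest nuclei, 8758 CPM (6865 to 11012) in the middle 45 and 12736 CPM (10994 to 14676) in the 45 deepest. With any UMI of the 12 other genes it was 10957 CPM (9406 to 12690) and without one 9899 CPM (8220 to 11819), intervals that overlapped. The part of depth in these differences was not tested.

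In the 12 nuclei that entered through Cdh13 alone, the pan-endothelial list was at 4165 CPM (1904 to 7906) from 9 UMIs, below the interval of the 113 nuclei with at least 2 rule genes, 11495 CPM (10199 to 12910). Their stromal list was at 5090 CPM (2541 to 9108), beside 1371 CPM (950 to 1916) in the 113 nuclei, and its 11 UMIs came from 4 of the 12 nuclei. Cdh13 was also the rule gene with the highest share in stromal nuclei, 7.26%, against 2.24% in adipocyte nuclei. In the 97 nuclei just outside the rule, the pan-endothelial list was at 4432 CPM (3441 to 5618) and the adipocyte list at 7430 CPM (6129 to 8925), beside 4095 CPM in the members.

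The genes with the most UMIs did not separate endothelium, apart from Cdh13 and Mecom. AABR07015057.1, an identifier with no gene name, gave 893 UMIs, or 3.13% of the endothelial UMIs and 3.10% of those of other nuclei. With 4 further identifiers that carry no name, Cdh13, Ebf1, Snrnp70, Zfp36 and Mecom, it made up 10.1% of the endothelial UMIs.

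Immediate early and stress genes, known to respond to tissue handling, were not higher in the endothelial nuclei of the 10x library. Of 14 tested, 4 were at least 2-fold lower, beside 3.64% of all genes and 5.86% of those with at least 50 UMIs, and none higher. The lower genes were the immediate early genes Fos and Fosb and the chaperone genes Hspa1b and Hspa5. The list stood at 9625 CPM (8521 to 10833) in endothelial, 11966 CPM in adipocyte, 10326 CPM in mesothelial, 9589 CPM in stromal and 8299 CPM in macrophage nuclei. Zfp36 had 95 UMIs, a ratio of 1.21 (0.973 to 1.48), and Atf3 24 UMIs and 1.62 (1.03 to 2.43). Over the 15 genes of the list that all files hold, its ratio to other nuclei was 0.854 (0.756 to 0.963) in the 10x library but above 1 in every Parse library, at 1.54 (1.32 to 1.78) in that labelled mesPVAT, 1.33 (1.23 to 1.44) in BAT, 1.26 (1.14 to 1.39) in taPVAT and, under the label RP fat, 1.49 (1.24 to 1.78). Its level in endothelial nuclei was 9625 CPM in the 10x library and 665 CPM (588 to 749) in the Parse library labelled mesPVAT. Klf2 was at 2590.04 CPM on 10x and 34.4 CPM on Parse, while its ratio to other nuclei was 3.55 (2.76 to 4.50) and 2.26 (1.05 to 4.75). Kit, batch, nuclei isolation, sorting, reference genome and the handling of the tissue cannot be told apart in these levels.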

How the data were processed

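Nuclei of snap-frozen rat mesPVAT were profiled with the 10x 3′ kit, and 4 further rat libraries with the Parse kit. The authors ran Cell Ranger 7.1.0 (per the file headers) on the 10x reads, and deposited UMI counts per gene and called barcode, unnormalized. FastQC and Scanpy appear in the submitters' processing notes. The study's methods name a rat genome for 10x, but the file does not, so no coordinates were taken from it. Those printed for promoters are RefSeq positions on GRCr8.

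UMIs were summed over nuclei and scaled to CPM. With 1 library per condition no test was made. Genes needed at least 20 UMIs in the library. Higher means a ratio of at least 2 with more than 3 endothelial UMIs, a condition added after seeing the data, and lower a ratio of at most 0.5 with counts under 3 set to 3. Intervals (95%) are exact Poisson for sums, exact binomial for shares, conditional binomial for ratios and from order statistics for medians. Named are the rule genes, the 25 leading genes, the 10 with most UMIs, the 10 lowest and members of fixed lists. The members and lists were chosen with earlier results of these data known. Some list genes were not analysed in the 10x library, among them Cd36, Cldn5, Ramp2, Lyve1, Krt19, Muc16, Higd1b, Ptgis, Junb and Dusp1. Python 3.11.15, numpy 2.4.6, scipy 1.17.1, pandas 2.3.3 and scanpy 1.11.5 were used with seed 20. The fold calls alone were tried on simulated sums, with large changes in abundant genes. Changes in genes of low count and the choice of nuclei were not simulated. Alternatives are given in the closing section.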

Additional observations from a re-analysis of the deposited data

Results flagged for a closer look

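2 genes of the lists had ratios to other nuclei of under 0.5 in the 10x library and over 2 in the Parse library labelled mesPVAT, and Cav1 alone met the minimum of 20 UMIs in both. The difference between the libraries was not tested. Cav1, which encodes the caveolae protein caveolin-1, had a ratio to other nuclei of 0.380 (0.0780 to 1.12) from 3 UMIs on 10x, and of 2.44 (1.69 to 3.49) from 58 UMIs on Parse. Its ratio was 4.02 in taPVAT and 4.43 in BAT, and in the 10x library its level was 699 CPM in mesothelial and 105 CPM in endothelial nuclei. Fosb, an immediate early gene, had a ratio of 0.450 (0.251 to 0.745) from 15 UMIs on 10x, and of 3.07 (0.705 to 13.3) from 5 UMIs on Parse. With 5 UMIs in the other nuclei, Fosb was too low on Parse to be counted as higher, and its interval there included 1.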

How the results depend on the processing

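The pan-endothelial ratio kept its direction under all settings run, from 5.39 with no UMI of the 12 other genes allowed to 7.36 against the 4 other rule classes, and these 2 values lay outside the main interval. The number of nuclei was 84 with at least 3 rule-gene UMIs, 69 with no UMI of the 12 genes and 58 with at least 200 UMIs per nucleus, and the median depth was 206, 160 and 269 UMIs. With no UMI of the 12 genes, 363 genes were higher and 98 lower, and with at least 200 UMIs per nucleus 178 were lower. Without the minimum of more than 3 UMIs, 1322 genes were higher, and with counts under 3 left as they are 3066 were lower, settings chosen after seeing the data. Thinning to 100 UMIs gave 92 genes per nucleus. All 25 leading genes were at least 2-fold higher under each of these settings but thinning, which was not run for single genes. Of 312 values of 39 leading and pan-endothelial genes under 8 settings, 294 lay within the main interval and 18 outside it, 12 of them with no UMI of the 12 other genes. There Emcn fell to 1.05, and Rapgef4, not called in either setting, went from 1.69 to 0.549. No paired analysis was possible because each condition has 1 library. The counts with the minimum applied to the other nuclei alone, and the sums over shared genes, were also chosen after seeing the data. Depth limits the rest, since 1 UMI was worth 35.0 CPM.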
